A study of Mus musculus with 6 samples.

Results

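Lens fiber cells arise when epithelial cells at the lens equator stop dividing, elongate and fill with crystallins, the soluble proteins that give the lens its refractive power. The α-crystallins Cryaa and Cryab belong to the small heat-shock proteins and act as chaperones, while the β- and γ-crystallins are structural proteins of the fiber cytoplasm. Mip is aquaporin-0, the water channel of the fiber membrane, Lim2 is an integral membrane protein of fiber cells, and Bfsp1 (filensin) and Bfsp2 (phakinin) build the beaded filament, an intermediate filament structure of the lens. Pax6, large Maf proteins, Sox proteins, Prox1 and Hsf4 are known regulators of crystallin genes, and Cryab is also made in many tissues outside the lens.

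The accessibility of 9 of these genes was examined in 3 mouse cell lines, among 22380 protein-coding genes annotated on the same assembly. The genes were chosen by name, as 5 crystallin genes (Cryaa, Cryab, Cryba1, Crybb2 and Crygs) and 4 genes of the fiber membrane and cytoskeleton (Mip, Lim2, Bfsp1 and Bfsp2). Pax6-ON cells (MV+) are a line derived from lens epithelium, Pax6-HIGH cells (β-TC3) come from a pancreatic β-cell tumour (insulinoma), and Pax6-OFF cells (RAG) are a renal adenocarcinoma line. The labels name no treatment. ATAC-seq, in which Tn5 transposase cuts and tags accessible DNA, had been carried out on 2 cell suspensions of each line with 50000 nuclei, and the authors called peaks once per line on both replicates together. MV+ nuclei were released with 0.2% NP40 and those of the other lines with 0.1%, so the detergent and the line cannot be told apart. With 1 pooled call per line no value below has a replicate error, no difference between lines could be tested, and a missing peak means that no peak was called, not that the DNA was closed.

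The peak calls held 9821 peaks from 130955836 fragments for MV+, 28024 peaks from 100254099 fragments for β-TC3 and 14022 peaks from 102223606 fragments for RAG. The weakest peak of each file had 30, 25 and 25 fragments at its summit respectively, and a site below that pileup was not called. Whether duplicate reads had been removed before the call is not clear from the sources used here, so fragments may include PCR copies. Pileups were not scaled for depth, so each peak below is placed by its rank within its own file, where a low top percentage marks a high pileup. The lens label of MV+ cells was set against 6 lens epithelium markers, of which Pax6 alone had a peak within 1 kb of a start site, while Six3 had a peak 2569 bp from its start and Foxe3, Cdh1, Gja1 and Pdgfra had none within 10 kb of their bodies. At start sites MV+ cells also had peaks at 2 of 6 fibroblast markers (Fn1 and Vim), 2 of 8 islet markers and 1 of 8 kidney tubule markers. Over all genes, 21.5% had an MV+ start-site peak, and with 6 or 8 genes per list these shares could not be told apart. Of the lens epithelium markers, 2 of 6 had a start-site peak in β-TC3 (46.5% of all genes) and 1 of 6 in RAG cells (36.1% of all genes). These calls thus do not settle the lens label of MV+ cells.

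The sequences that the results turn on are shown first, read from the mm9 assembly (NCBIM37). The promoters of Cryaa, Cryba1, Mip and Lim2, each 250 bases up to the outermost annotated start site on the strand of the gene, are examples from the genes that had no peak at their own start in any line. In capitals are exact matches, on either strand, to TGCTGA (the core bound by Maf proteins), ACAAT (a core bound by Sox proteins) and TATAAA (the TATA box). The heat shock element core GAANNTTC was searched as well, and no match overlapped another in the sequences printed. All of these promoters hold TGCTGA, while those of Crybb2 and Bfsp2, which also had no peak at their own start, do not.
Cryaa promoter, chr17:31814628-31814877, + strand: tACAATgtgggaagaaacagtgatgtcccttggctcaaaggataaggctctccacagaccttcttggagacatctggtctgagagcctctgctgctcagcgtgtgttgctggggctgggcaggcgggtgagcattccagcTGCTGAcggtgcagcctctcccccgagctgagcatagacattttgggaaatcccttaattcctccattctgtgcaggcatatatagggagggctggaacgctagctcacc
Cryba1 promoter, chr11:77538786-77539035, - strand: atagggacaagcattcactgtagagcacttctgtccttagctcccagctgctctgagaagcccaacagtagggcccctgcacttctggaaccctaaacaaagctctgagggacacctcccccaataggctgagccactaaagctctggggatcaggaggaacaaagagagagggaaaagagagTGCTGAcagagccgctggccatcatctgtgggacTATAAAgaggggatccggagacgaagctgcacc
Mip promoter, chr10:127662644-127662893, + strand: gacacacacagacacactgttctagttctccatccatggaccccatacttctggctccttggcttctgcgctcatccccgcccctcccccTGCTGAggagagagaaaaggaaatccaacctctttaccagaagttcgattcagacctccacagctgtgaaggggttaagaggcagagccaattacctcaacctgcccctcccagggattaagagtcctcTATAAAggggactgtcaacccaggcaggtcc
Lim2 promoter, chr7:50682790-50683039, + strand: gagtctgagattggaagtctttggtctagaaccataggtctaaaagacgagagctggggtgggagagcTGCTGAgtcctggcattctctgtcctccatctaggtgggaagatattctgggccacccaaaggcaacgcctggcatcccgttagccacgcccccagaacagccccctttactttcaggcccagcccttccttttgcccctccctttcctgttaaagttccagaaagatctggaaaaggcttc

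The next 4 sequences are peaks near Lim2, Bfsp1 and Bfsp2, shown because they are the MV+ peak and the 3 peaks that lay within 1 kb of no other gene's start. The first is from the Lim2 peak called in all 3 lines, cut to the 300 bases nearest the summit of its stretch outside UTRs. The Bfsp1 sequence holds the first 300 bases of its peak by coordinate. All are in mm9 on the strand of the gene they were assigned to, with the same motifs in capitals.
Lim2 peak in MV+, at the Etfb start, chr7:50699178-50699477, + strand: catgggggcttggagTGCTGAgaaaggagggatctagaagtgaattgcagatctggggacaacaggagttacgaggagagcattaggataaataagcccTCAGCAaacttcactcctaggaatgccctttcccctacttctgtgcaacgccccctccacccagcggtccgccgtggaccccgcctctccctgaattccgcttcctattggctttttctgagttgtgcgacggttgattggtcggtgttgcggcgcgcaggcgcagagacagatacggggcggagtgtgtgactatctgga
Lim2 upstream peak in β-TC3, chr7:50678536-50678795, + strand: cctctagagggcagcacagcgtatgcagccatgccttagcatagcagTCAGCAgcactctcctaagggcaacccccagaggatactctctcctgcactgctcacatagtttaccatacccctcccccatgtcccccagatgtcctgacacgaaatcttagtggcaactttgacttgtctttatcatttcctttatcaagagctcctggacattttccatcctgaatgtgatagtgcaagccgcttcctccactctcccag
Bfsp1 upstream peak in β-TC3, chr2:143693131-143693430, - strand: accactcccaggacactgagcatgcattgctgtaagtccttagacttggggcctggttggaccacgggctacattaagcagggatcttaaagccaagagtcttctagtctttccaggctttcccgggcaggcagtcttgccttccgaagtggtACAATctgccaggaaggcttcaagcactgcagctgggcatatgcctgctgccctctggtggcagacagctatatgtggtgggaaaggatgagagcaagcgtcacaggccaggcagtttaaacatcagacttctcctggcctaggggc
Bfsp2 exon peak in RAG, chr9:103334795-103334991, - strand: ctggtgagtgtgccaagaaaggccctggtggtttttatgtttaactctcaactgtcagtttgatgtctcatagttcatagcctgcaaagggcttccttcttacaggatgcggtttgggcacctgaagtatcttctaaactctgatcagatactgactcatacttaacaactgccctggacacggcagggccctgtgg

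To ask where the lens genes lay among called sites, peaks were counted in each gene body with 10 kb on either side. Pax6-ON cells had a peak at 1 of the 9 genes (11.1%), Lim2, where 30.6% of all protein-coding genes had one in the same kind of window. Pax6-HIGH cells had a peak at 3 genes (33.3%), Mip, Bfsp1 and Lim2, against 61.6% of all genes. Pax6-OFF cells had a peak at 4 genes (44.4%), Cryab, Mip, Bfsp2 and Lim2, against 49% of all genes. The shares of MV+ and β-TC3 were below those of all genes, while the RAG share was near it. With the same number of peaks taken from each file (9821, by q-value), MV+ and β-TC3 cells each had a peak at 1 gene, against 30.6% and 37.8% of all genes, and RAG cells at 2, against 41.4%, so the lower count of MV+ than of β-TC3 did not hold. With 9 genes, 1 gene more or less moves a share by 11.1 percentage points, and no difference was tested. Their windows were 23.8 to 75.4 kb long with a median of 26.7 kb, shorter than the median of 35.4 kb over all genes. Counting 10 kb on each side of the outermost start instead, which gives every gene the same window, MV+ had 0 of the 9 against 24.8% of all genes, β-TC3 3 against 53.4% and RAG 2 against 41.6%.

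Lim2 was the single gene with a peak in all 3 lines, and Cryaa, Cryba1, Crybb2 and Crygs had none in any line. Across all genes, 32.6% had no peak in any line. The 9 windows held 10 peaks in all, 1 in MV+, 5 in β-TC3 and 4 in RAG cells. Of these 10 peaks, 7 lay within 1 kb of the start site of another protein-coding gene and 6 covered such a start. A site at the start of Etfb was called in all 3 lines and one at a start of Timeless in 2, so the 10 peaks are not separate sites. Over all genes and the peaks in their windows, 29.3% of gene and peak pairs in MV+, 27.2% in β-TC3 and 37.0% in RAG cells had the peak within 1 kb of another gene's start. These shares are per line, while the 7 peaks are counted over the 3 lines together. When those 7 were left out, a choice made after seeing the data, Pax6-ON cells kept a peak at 0 genes (22.0% of all genes), Pax6-HIGH cells at 2, Bfsp1 and Lim2 (48.0%), and Pax6-OFF cells at 1, Bfsp2 (34.3%). This also left out the RAG peak at Cryab, which covered a start of Cryab itself and lay 555 bp from the start of Hspb2.

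**Figure D1:**
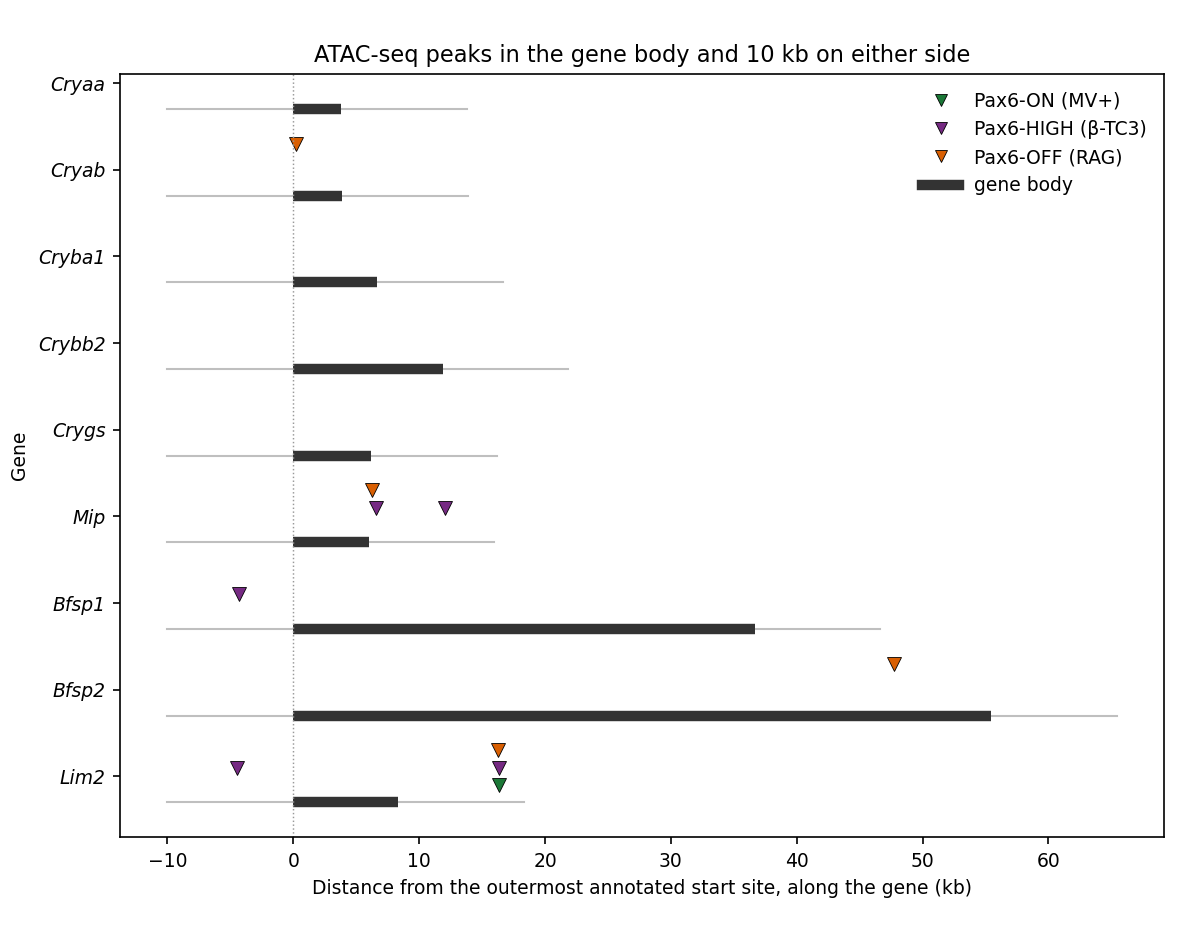
Positions of the called peaks (triangles, at the summit) along each of the 9 genes, in kb from the outermost annotated start in the direction of transcription, with the gene body as a black bar and the 10 kb flanks as a grey line. Pax6-ON cells have 1 triangle, beyond the end of Lim2, and 4 genes have none in any line.

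At start sites the lens genes were nearly without peaks. Within 1 kb of any annotated start, Pax6-ON cells had a peak at 0 of the 9 genes, against 21.5% of all genes, and Pax6-HIGH cells at 0, against 46.5%. Pax6-OFF cells had a peak at 1 gene, Cryab, against 36.1% of all genes. Inside the gene bodies there were no peaks in MV+ or β-TC3 cells, where 22.9% and 50.8% of all genes had one. In RAG cells there were 2, at Cryab and Bfsp2, against 38.4% of all genes.

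Among the α-crystallins, Cryaa (chr17:31814878-31818667, + strand) had no peak in its window in any line. The nearest peak of Pax6-ON cells lay 113099 bp upstream at the start of Pknox1, a homeobox gene, with 46 fragments at its summit, and Cryaa stood in a stretch of 756 kb without a called MV+ peak. The nearest peaks of the other lines lay closer, at the start of the splicing factor gene U2af1, 18701 bp away with 73 fragments in β-TC3 and 18856 bp away with 45 fragments in RAG cells.

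Cryab (chr9:50560863-50564738, + strand) was the one crystallin of the 9 genes with a peak, and it was called in RAG, the kidney-derived line. This peak, chr9:50561014-50561288, was 275 bp long and covered the second of 3 annotated Cryab starts (50561125), with 37 fragments at the summit, a fold enrichment of 3.21 at a −log10 q of 7.03. It ranked 10929 by pileup of the 14022 peaks of its file, in the top 77.9%, so it was a weak call. It lay wholly within annotated UTR, for which reason its sequence is not shown, had a GC content of 55.6% and held none of the 4 motifs. The start of Hspb2, a small heat-shock protein gene that lies beside Cryab, was 555 bp from it. No peak of another line overlapped it, and the nearest to it lay 15011 bp away in β-TC3 and 224155 bp away in MV+ cells. From the Cryab gene body, the nearest MV+ peak was 224004 bp upstream at the start of Pts, with 44 fragments, and the nearest β-TC3 peak was 11561 bp downstream at the start of Fdxacb1, also with 44.

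The β-crystallins Cryba1 (chr11:77532117-77538785, - strand) and Crybb2 (chr5:113487278-113499137, - strand) had no peak in any window. Cryba1 was the gene farthest from a peak of Pax6-ON cells, 257234 bp from one at the start of Phf12 with 48 fragments, in a stretch of 2520 kb with no MV+ call. The nearest peaks of the other lines were both at the Nufip2 start, 32195 bp away with 61 fragments in β-TC3 and 32409 bp away with 52 fragments in RAG cells. For Crybb2 the nearest peak of Pax6-ON cells was 94697 bp upstream, with 44 fragments and no annotated start within 1 kb. A RAG peak of 97 fragments overlapped that site and was the nearest RAG peak too, at 94499 bp. In β-TC3 cells the nearest was 11367 bp upstream and covered the start of Crybb3, the neighbouring β-crystallin gene, with 38 fragments in the top 75.7% of its file.

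Crygs (chr16:22805276-22811483, - strand), the γS-crystallin gene, also had no peak in its window. The nearest peak was 46175 bp upstream in MV+ cells, at the Dnajb11 start with 50 fragments. In β-TC3 cells it was 45976 bp away at the starts of Tbccd1 and Dnajb11, where 187 fragments placed it in the top 4.11%. In RAG cells it was 33069 bp away in an intron of Tbccd1, with 31 fragments in the top 92.0%. Crygs was thus at a similar distance from a peak in MV+ and β-TC3 cells, unlike Cryaa, Cryab and Cryba1.

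Of the fiber membrane genes, Mip (chr10:127662894-127668868, + strand) had peaks beyond its 3′ end in 2 lines and none in Pax6-ON cells. The β-TC3 peak chr10:127669137-127669857 began 269 bp past the gene and covered the start of Timeless, a circadian and replication gene, with 40 fragments in the top 71.4%. The RAG peak chr10:127669131-127669868 contained it, 263 bp past the gene, with 38 fragments in the top 75.5%. A second β-TC3 peak, chr10:127674796-127675123, lay 5928 bp past Mip at another Timeless start, with 53 fragments, a fold enrichment of 4.22 and a place in the top 50.4%. Every peak in the Mip window was therefore at a Timeless start. In Pax6-ON cells the nearest peak was 71403 bp downstream, at the Pan2 start with 54 fragments.

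Lim2 (chr7:50683040-50691363, + strand) carried the one peak of Pax6-ON cells, chr7:50699130-50699505. It lay 7767 bp past the gene at the start of Etfb, which encodes a subunit of the electron transfer flavoprotein, and had 77 fragments, a fold enrichment of 5.14 at a −log10 q of 27.7. It ranked 2999 of 9821 by pileup, in the top 30.5%. The site was called in β-TC3 cells as chr7:50698951-50699658, with 95 fragments, a fold enrichment of 6.79 and a place in the top 20.5%, and in RAG cells as chr7:50698997-50699562, with 52 fragments, a fold enrichment of 4.47 and a place in the top 45.8%. Both contained the MV+ peak over all of its 376 bp. This site gave the best rank of the 5 lens gene peaks in β-TC3 and of the 4 in RAG cells, and was the only one in MV+ cells. In its sequence above the Maf core TGCTGA occurs once on each strand.

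A second Lim2 peak was called in β-TC3 cells, chr7:50678536-50678795, 4245 bp upstream of the gene in intergenic DNA. It was 260 bp long with 45 fragments, a fold enrichment of 3.60 at a −log10 q of 10.7, in the top 62.2%. The nearest peaks of the other lines lay 20335 bp away in MV+ and 20202 bp away in RAG cells. It holds 1 Maf core, on the strand opposite to Lim2.

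The beaded filament genes each had a peak in 1 line, and in neither case was it Pax6-ON. At Bfsp1 (chr2:143652264-143688909, - strand) the β-TC3 peak chr2:143693131-143693444 lay 4222 bp upstream in intergenic DNA, with 43 fragments, a fold enrichment of 3.44, a −log10 q of 9.60 and a place in the top 65.7%. Its printed sequence holds 1 Sox core. The nearest peaks to Bfsp1 in the other lines were at the start of Dstn, an actin-depolymerising factor gene, 51709 bp away with 115 fragments (top 11.3%) in MV+ cells and 51747 bp away with 77 fragments in RAG cells.

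At Bfsp2 (chr9:103327250-103382658, - strand) the RAG peak chr9:103334795-103334991 overlapped a coding exon far into the gene, 47740 bp from the outermost start at its summit. It was 197 bp long, the shortest of the 10 peaks, with 40 fragments, a fold enrichment of 3.46, a −log10 q of 8.66 and a place in the top 70.5%, and it held none of the motifs. The same interval lies in an intron of 5830418P13Rik, so the annotation does not assign it to Bfsp2 alone. The nearest MV+ peak was 58814 bp downstream of the gene, at the Cdv3 start with 88 fragments (top 22.6%), and the nearest β-TC3 peak was 58781 bp away at the same start with 108.

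By pileup the lens gene peaks stood mostly in the weaker part of each file. Their median place was the top 62.2% in β-TC3 cells (5 peaks, 20.5% to 71.4%) and the top 73.0% in RAG cells (4 peaks, 45.8% to 77.9%), where a peak in the middle of the file is at 50 by definition. The 1 peak of MV+ cells was in the top 30.5%. By overlap of at least 1 bp, the MV+ peak, 2 of the 5 β-TC3 peaks and 2 of the 4 RAG peaks were shared with another line. Of all peaks, 66.9% in MV+, 36.6% in β-TC3 and 73.2% in RAG cells were shared in this way. The shared lens gene peaks lay at a start of Timeless and at the Etfb start. The other 5 were each called in 1 line, at Bfsp1, upstream of Lim2 and at another Timeless start beside Mip in β-TC3, and at Bfsp2 and Cryab in RAG.

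**Figure D2:**
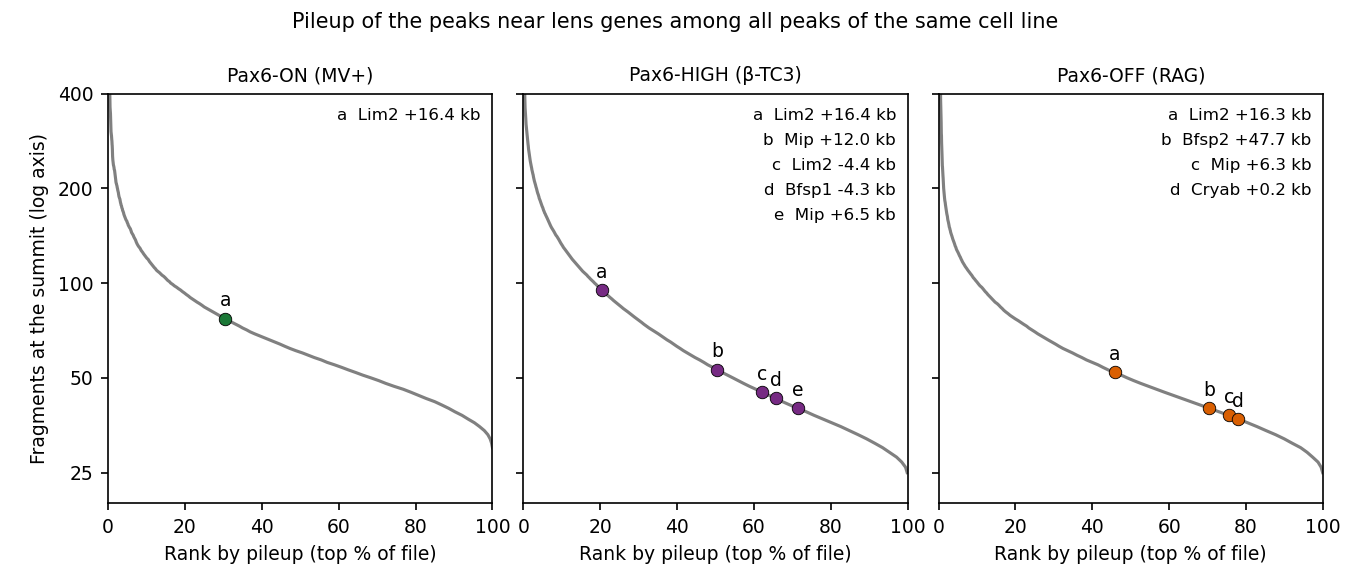
Pileup in fragments at the summit (log axis) against rank within the file (top %, from highest to lowest pileup) for all peaks of each line (grey curve) and for the lens gene peaks (lettered points, with the gene and the distance of the summit from its outermost start). The Lim2 peak at the Etfb start stands highest in the β-TC3 and RAG panels and is the only point in the MV+ panel. Of the 10 points, 7 lie past the top 50%.

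Over the 9 genes the median distance to the nearest MV+ peak was 71.4 kb (7.77 to 257 kb), and 6 genes lay farther from one than the median of 56.5 kb over all genes. The median was 11.6 kb in β-TC3 cells (0.269 to 58.8 kb), where all 9 genes lay farther than the median of all genes. That median was 0.0 kb because 50.8% of all genes had a β-TC3 peak inside the body, so this restates that none of the 9 had one. Distances were measured from the gene body and not matched for gene length, and the lens genes had shorter windows (median 26.7 against 35.4 kb). In RAG cells it was 18.9 kb (0 to 94.5 kb), with 5 genes farther than the median of 11.3 kb. With 9821 peaks per file the medians of the 9 genes were 71.4 kb in MV+, 46.0 kb in β-TC3 and 31.0 kb in RAG cells, against 56.5, 33.3 and 23.1 kb over all genes, so the gap between the lines was smaller. Of all genes, 79.7% were nearer to an MV+ peak than Cryba1, 77.1% nearer than Cryab and 63.0% nearer than Cryaa, while Crygs (46.4%), Bfsp1 (48.2%) and Bfsp2 (50.6%) were near the middle and Lim2 (29.3%) was closer than most.

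At 8 of the 9 genes the nearest MV+ peak covered the start of another gene, the exception being the peak near Crybb2. Of all MV+ peaks, 37.7% covered a protein-coding start. That share is over all peaks, and none was computed over the peaks nearest to each gene. Of the 9 nearest peaks, 8 were overlapped by peaks of both other lines and the one near Crybb2 by a RAG peak, and 0 were called in MV+ alone. Of the 4372 MV+ peaks within 1 kb of a protein-coding start, 92.8% overlapped a peak of another line and 77.6% peaks of both, so this sharing was near that of MV+ start-site peaks as a whole.

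**Figure D3:**
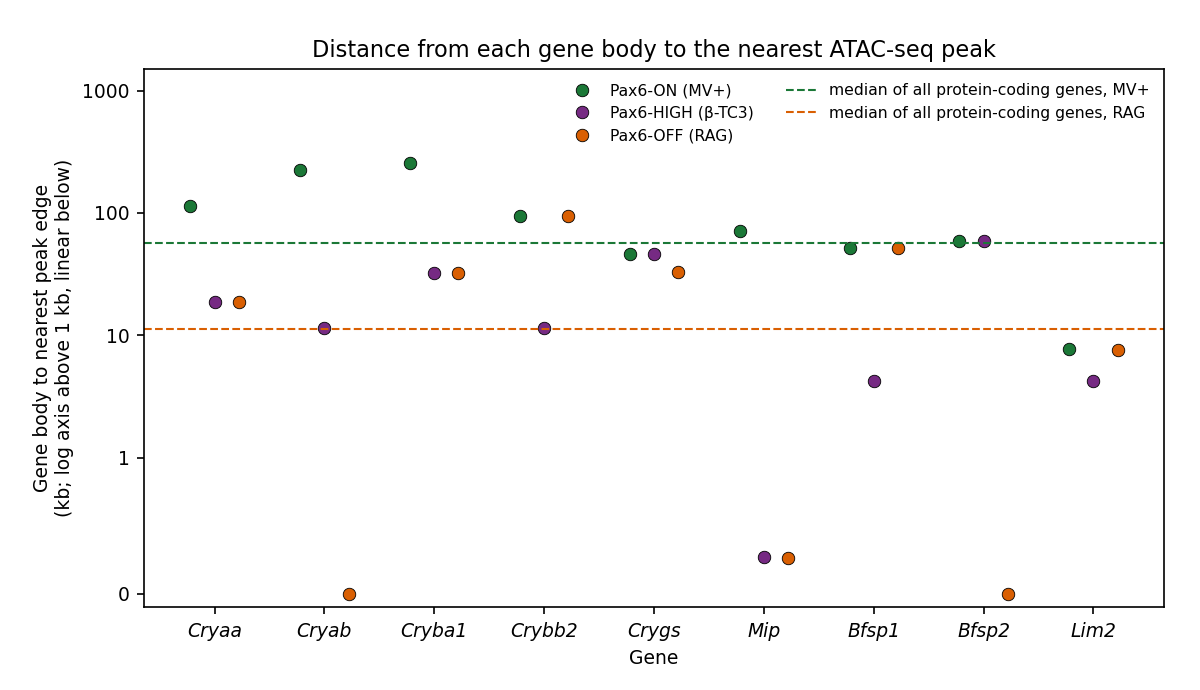
Distance in kb from each gene body to the edge of the nearest peak, by line (points; log axis above 1 kb and linear below, 0 for a peak inside the gene), with the median over all protein-coding genes as dashed lines for MV+ (56.5 kb) and RAG (11.3 kb). The β-TC3 median is 0.0 kb and is not drawn. The MV+ points of Cryaa, Cryab and Cryba1 lie above 100 kb and those of the other lines at or below 32.4 kb.

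The promoters of the lens genes share features that did not enter their choice. Over 300 bases (250 before to 49 after the outermost start), the ratio of observed to expected CpG was 0 to 0.332 with a median of 0.182, against a median of 0.534 over the 22380 genes, while GC content was 44.3% to 56.7% with a median of 53.0%, against 55.0%. Crybb2 had no CpG in this window, and Lim2 had the highest ratio of the outermost starts. The other annotated start of Bfsp1 (143688679) had a ratio of 0.777 and a GC content of 65.0%, so the low ratio of Bfsp1 (0.236) holds for its outermost start only. When all genes were ordered by CpG ratio and split into 4 groups of 5595, 6 lens genes fell in the lowest group (Cryab, Cryba1, Crybb2, Crygs, Mip and Bfsp2) and the other 3 in the next. The shares of genes with a start-site peak in these groups, from lowest to highest CpG, were 3.72%, 11.9%, 31.4% and 38.7% in MV+ cells, 8.36%, 28.6%, 67.4% and 81.4% in β-TC3 cells, and 5.67%, 17.9%, 51.5% and 69.3% in RAG cells. The comparison by CpG group was added after seeing the data. Beside the lower 2 groups, the 0, 0 and 1 lens genes with a start-site peak are thus to be read against smaller shares than those over all genes. For the 10 kb windows the shares in the lowest and the next group were 13.6% and 23.1% in MV+, 27.1% and 50.8% in β-TC3, and 19.5% and 34.3% in RAG cells, beside 11.1%, 33.3% and 44.4% of the lens genes. CpG content was not separated from other properties of these promoters, and its part in the missing calls was not tested.

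In the same 300 bases the Maf core TGCTGA occurred in 6 of the 9 promoters (Cryaa, Cryba1, Crygs, Mip, Bfsp1 and Lim2), against 17.8% of all promoters. Counted at its first base along the strand of the gene, it lay 110 bases before the start of Cryaa, 67 before Cryba1, 160 before Mip and 182 before Lim2, as printed above. The Sox core ACAAT occurred in 5 (Cryaa, Cryab, Crybb2, Crygs and Bfsp1), against 28.4%, TATAAA in 3 (Cryba1, Crygs and Mip), against 13.4%, and the heat shock element core in 1 (Bfsp2), against 7.56%. The TATAAA matches lay 33 bases before the start of Cryba1, 25 before Crygs and 31 before Mip. For comparison, TGCTGA occurred in 20.9% of MV+, 27.8% of β-TC3 and 16.9% of RAG peaks in the 301 bases around the summit. At any annotated start of a gene, rather than the outermost, the counts were 7 genes for the Maf core, 7 for the Sox core, 4 for the TATA box and 2 for the heat shock element core. The shares of all promoters above cover every CpG ratio. All 9 lens promoters fell in the lower 2 CpG groups, for which no motif share was computed. The shares above are also for outermost starts, and none was computed over every start. Several starts give more sequence to search, so these last counts have no matching share. A match of letters is not a binding site, and none of these 6 promoters with a Maf core had a called peak.

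The other crystallin genes were examined in the same way. Of the 16 α-, β- and γ-crystallin genes, the 5 above included, Pax6-ON cells had a peak in the window of 2 (Crybb1 and Crygf), Pax6-HIGH cells of 5 and Pax6-OFF cells of 4, and at a start site of 0, 3 and 2. The shares of all genes were 30.6%, 61.6% and 49% for windows and 21.5%, 46.5% and 36.1% for starts, and the crystallin counts were below them in each line. The Crybb1 peak of MV+ cells (70 fragments) was at the start of Tpst2. The Crygf peak of MV+ cells had 92 fragments (top 20.4%) and lay 5655 bp from the Crygf start, with 84 fragments called in RAG cells. The start-site peaks of β-TC3 cells were at Cryba2 (115 fragments, top 13.8%), Crybb3 (38) and Crygn (33), and those of RAG cells at Cryab and Crygn (41). Among crystallin-related genes with enzymatic roles, Cryz and Cryzl1 had start-site peaks in all 3 lines, of 106 and 64 fragments in MV+ cells, although the Cryz peak also covered the start of Tyw3. Cryl1 had one in β-TC3 (42) and RAG cells (62). Taken over all 17 other crystallin and crystallin-related genes, 4 had a peak in the window in MV+ (23.5%), 10 in β-TC3 (58.8%) and 6 in RAG cells (35.3%), and 2, 6 and 4 at a start.

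Among 12 further genes of lens fibers, 4 had a peak in the window in MV+ cells (33.3%, against 30.6% of all genes). In each of the other lines 6 had one (50.0%, against 61.6% in β-TC3 and 49% in RAG). At a start 2, 2 and 3 had a peak in MV+, β-TC3 and RAG cells, against 21.5%, 46.5% and 36.1% of all genes. Those with a start-site peak in MV+ cells were Fyco1, an autophagy adaptor (253 fragments, a fold enrichment of 16.3, top 1.19%), and Tdrd7, an RNA granule component (47 fragments, top 74.4%), and both had start-site peaks in the other lines too. Hspb1, a small heat-shock protein gene, had one in RAG cells (36 fragments). The MV+ peaks in the windows of Birc7 and, at 3 of 4 peaks, Dnase2b were at starts of other genes, Ythdf1 for Birc7 and Ssx2ip, Ctbs and Spata1 for Dnase2b. Genes with no peak in the window in any line included Gja3, a connexin gene, and Lgsn, Grifin, Lctl and Epha2.

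Of 10 regulators of lens genes, 6 had a peak in the window in MV+ (60.0%), 7 in β-TC3 (70.0%) and 5 in RAG cells (50.0%). Of all genes, 30.6%, 61.6% and 49% had one. At a start 4, 6 and 4 regulators had a peak, against 21.5%, 46.5% and 36.1% of all genes. The MV+ start-site peaks were at Pax6 (74 fragments, top 33.2%), Gata3 (81, top 27.3%), Maf (42, top 85.0%) and Prox1 (34, top 97.9%). Pitx3 had an MV+ peak of 82 fragments at the start of its neighbour Gbf1, which was called in both other lines too. Six3 had one of 42 fragments that was called in no other line. In β-TC3 cells start-site peaks were called at Pax6 (175 fragments, top 4.94%), Gata3 (169, top 5.42%), Maf (70, top 34.3%) and Prox1 (60, top 42.6%) as well. Each ranked higher within its file than in MV+ cells. Hsf4 (100) and Mafg (32) had start-site peaks in β-TC3 but not in MV+ cells. RAG cells had them at Maf (51), Gata3 (56) and Mafg (71), and a RAG peak of 33 fragments lay 891 bp from the Pitx3 start. Foxe3 and Sox2 had none in any line. Start-site peaks were thus called at 4 of 10 regulators in MV+ cells, 6 in β-TC3 and 4 in RAG cells. Of the 9 crystallin and fiber genes, 0, 0 and 1 had one in these lines. The higher count of regulators was therefore not particular to the lens-derived line. The genes were chosen with earlier results of these data known, and the promoters of the regulators were not compared by CpG ratio. Over the 39 genes of these 3 lists, 35.9% had a peak in the window in MV+, 59.0% in β-TC3 and 43.6% in RAG cells, near the 30.6%, 61.6% and 49% of all genes. With 9821 peaks per file the shares were 35.9%, 33.3% and 41.0%, so the order of MV+ and β-TC3 turned.

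**Figure D4:**
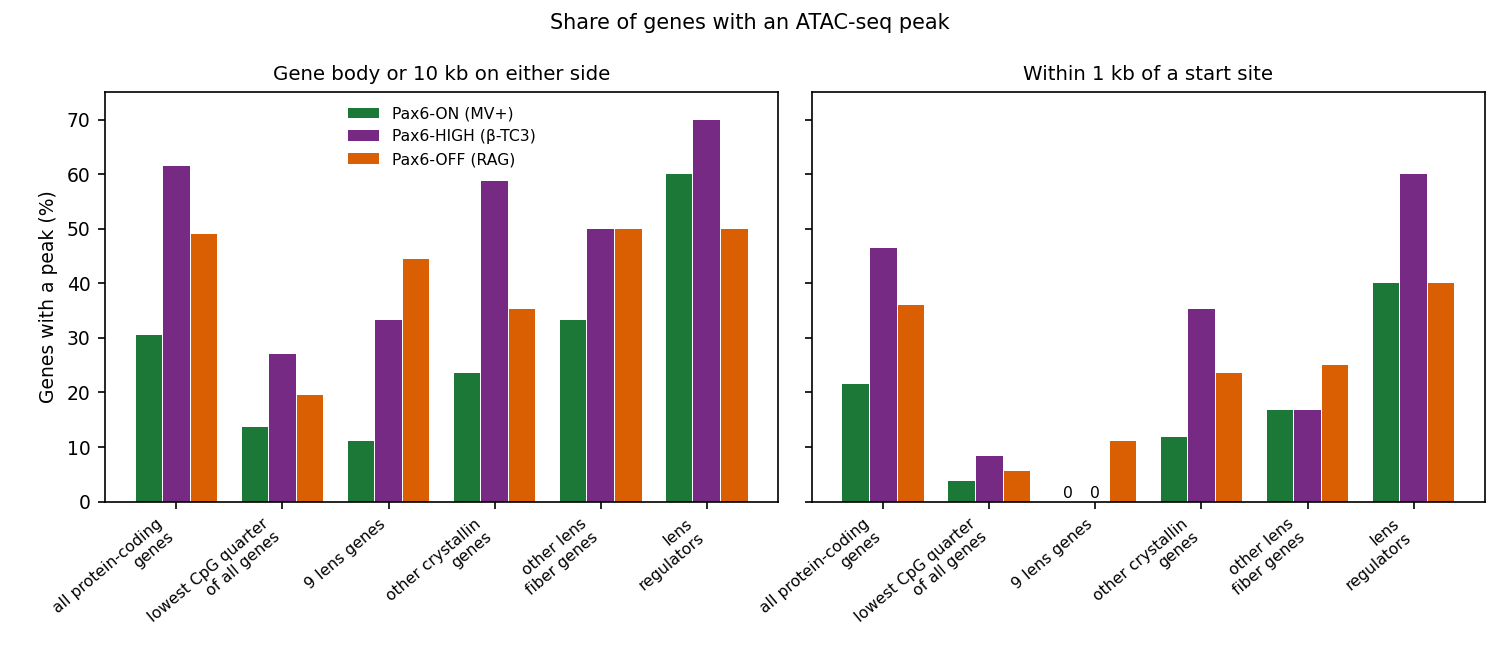
Share of genes (%) with a called peak in the gene body or 10 kb on either side (left) and within 1 kb of a start site (right), by line, for all 22380 protein-coding genes, the 5595 with the lowest promoter CpG ratio, the 9 lens genes and the 3 wider lists. At start sites the 9 lens genes stand at 0% in MV+ and β-TC3 cells and at 11.1% (1 gene) in RAG cells. The 10 regulators stand at 40% in MV+, 60% in β-TC3 and 40% in RAG cells.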

How the data were processed

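ATAC-seq libraries of 2 replicates for each of 3 lines were processed by the authors, who trimmed reads with Trim Galore 0.4.1, aligned them to mm9 with Bowtie2 2.2.6 (SAMtools 1.6 is also listed) and called peaks with MACS2 2.1.1 on both replicates pooled, at a q-value cut of 0.05 and with no control library. The deposited pileup is a signal, the fragments at the summit, not scaled for depth. Fold enrichment, also as deposited, is a ratio, the pileup over the local background. The authors' q-values stand as −log10 values. Paired-end fragments were used without a shift to the Tn5 cut site, which can widen peaks.

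Peak tables, loaded in Python 3.11.15 (pandas 2.3.3), were set against GENCODE M1 genes on NCBIM37, with sequences read by pysam 0.24.0. Overlap was at least 1 bp. A start site was every annotated transcript start, and CpG ratios used the outermost. Overlap counts and nearest distances were checked on simulated peaks. All peaks of the 9 genes are given. Of the wider lists, those named had an MV+ peak or a start-site peak in any line, along with genes that had none. The members and lists were chosen with earlier results of these data known. Alternatives tried were q cuts of 0.01 and 0.001, 9821 peaks per line, other windows and 3 choices added after seeing the data (CpG groups, every annotated start, and leaving out peaks within 1 kb of other genes' starts). Sox1 and Tfap2a were not analysed here.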

Additional observations from a re-analysis of the deposited data

How the results depend on the processing

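No paired analysis was possible because the authors pooled both replicates of a line in 1 peak call, and for the same reason no replicate could be left out. Of 96 alternative values, 77 moved by no more than 1.5 times. Some of these could not move. Taking 9821 peaks per line keeps every MV+ peak, so no MV+ value except sharing could change under that choice. Start-site counts of 0 could not rise under stricter cuts. The q-value cuts of 0.01 and 0.001 left the number of lens genes with a peak at 1, 3 and 4 in MV+, β-TC3 and RAG cells. Counting gene bodies alone gave 0, 0 and 2 genes (22.9%, 50.8% and 38.4% of all genes), and flanks of 50 kb gave 2, 8 and 7 (47.7%, 78.4% and 68.6%). Flanks of 5 kb gave 0 in MV+ cells (27.7% of all genes), and 10 kb on each side of the start site gave 0 in MV+ and 2 in RAG cells. Leaving out peaks within 1 kb of the start of another gene, chosen after seeing the data, gave 0 in MV+ and 1 in RAG cells. This dropped the RAG peak at Cryab, although it covered a start of Cryab itself. With 9821 peaks taken per line, β-TC3 had a peak at 1 lens gene (37.8% of all genes) and RAG at 2 (41.4%), the RAG start-site peak at Cryab was lost (0, against 30.8%), and 13 of the 39 genes of the wider lists had a peak in β-TC3. The median distance then rose to 46.0 kb in β-TC3 and 31.0 kb in RAG cells, and 1 peak of each of these lines was shared with another. MV+ cells had the most fragments and the fewest peaks, and the part of library quality in their missing calls was not tested.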
